A study of Mus musculus with 24 samples.

Results

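The genes described here encode 10 subunits of the SWI/SNF chromatin remodelling complexes: Smarca2, Smarca4, Smarcb1, Smarcc1, Smarcc2, Smarcd1, Smarce1, Arid1a, Arid1b and Actl6b. They were taken by name from the 52636 genes counted in RNA-seq libraries of the nucleus accumbens (NAc), the part of the ventral striatum that serves reward and motivation. Each of 24 C57BL/6 mice (C57BL/6J in the study's methods), killed at P50, gave 1 library: 6 control (Con) females, 6 females after maternal separation with unpredictable stress of the dam (MSUS), 6 Con males and 6 MSUS males. MSUS litters were separated daily from P1 to P14, for 3 h or, in the deposited design text, 2 h, and Con litters were left undisturbed. The labels do not give the litters, so that animals of a group may share one. They give an estrous stage to 6 of the 12 females and also to 6 of the 12 males, so the stage was not used. NAc tissue was punched out whole, so fewer cells of a type and less RNA per cell cannot be told apart. All 10 genes passed the filter on low counts in every comparison, with between 2025 and 21350 raw counts per library.

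SWI/SNF complexes, called BAF complexes in mammals, use ATP to slide or evict nucleosomes and so change access to promoters and enhancers. The canonical BAF form holds 1 ATPase, encoded by Smarca4 (BRG1) or Smarca2 (BRM), on a core of the scaffold subunits Smarcc1 (BAF155) and Smarcc2 (BAF170), a Smarcd subunit (BAF60), Smarce1 (BAF57) and Smarcb1 (BAF47), and one of the mutually exclusive large subunits Arid1a and Arid1b. The PBAF form carries Arid2 in their place, and the GLTSCR1 form lacks these large subunits, Smarcb1 and Smarce1. Postmitotic neurons exchange the progenitor subunits Actl6a, Phf10 or Dpf2 and Ss18 for Actl6b (BAF53b), Dpf1 or Dpf3 and Ss18l1, which gives the neuronal form nBAF, known for its part in dendrite growth and memory.

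The sequences before the RefSeq start of 5 of the genes are shown because the results turn on the contrast between Smarca4, Smarcc2 and Smarcd1, which passed the test in females, and the paralogues Smarca2 and Smarcc1, which did not. RefSeq (GRCm38.p6) holds a window upstream of the start for 9 of the 10 genes, Smarce1 being the other. The printed bases are those of the 250 before the start that lie in no annotated exon: chr9:21615919-21616168 for Smarca4, chr19:26604910-26605049 for Smarca2, chr10:128458986-128459235 for Smarcc2, chr9:110131774-110131979 for Smarcc1 and chr15:99702037-99702128 for Smarcd1, all on the plus strand and written 5′ to 3′. The RefSeq start of Smarcc1 lies 14316 bases downstream of the GENCODE start, so this window is inside the gene as GENCODE annotates it. Capitals mark GC boxes, the letters GGGCGG on either strand.
Smarca4: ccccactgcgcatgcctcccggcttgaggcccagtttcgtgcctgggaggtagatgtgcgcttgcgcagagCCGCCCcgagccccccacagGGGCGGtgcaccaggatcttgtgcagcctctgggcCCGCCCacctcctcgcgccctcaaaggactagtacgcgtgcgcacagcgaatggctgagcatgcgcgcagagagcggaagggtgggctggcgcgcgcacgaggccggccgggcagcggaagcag
Smarca2: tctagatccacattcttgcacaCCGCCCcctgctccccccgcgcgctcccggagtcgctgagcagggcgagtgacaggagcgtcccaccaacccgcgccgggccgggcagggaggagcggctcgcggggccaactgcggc
Smarcc2: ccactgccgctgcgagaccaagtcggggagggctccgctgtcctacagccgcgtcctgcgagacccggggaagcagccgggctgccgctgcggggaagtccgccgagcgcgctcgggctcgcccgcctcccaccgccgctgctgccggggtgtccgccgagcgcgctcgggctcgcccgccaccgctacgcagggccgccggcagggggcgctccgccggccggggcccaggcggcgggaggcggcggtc
Smarcc1: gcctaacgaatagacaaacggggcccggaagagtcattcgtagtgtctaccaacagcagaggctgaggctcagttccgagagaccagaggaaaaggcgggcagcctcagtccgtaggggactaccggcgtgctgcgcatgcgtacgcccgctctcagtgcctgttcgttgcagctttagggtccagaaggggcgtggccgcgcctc
Smarcd1: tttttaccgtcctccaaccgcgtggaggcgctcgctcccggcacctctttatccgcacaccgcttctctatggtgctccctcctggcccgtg
Over the whole 250 bases, 7 of the 9 windows held at least 1 GC box, as did 32.7% of the 32851 windows of all genes. Smarca4 had 3, Smarca2 had 2, Smarcc1 and Smarcd1 had 1 each and Smarcc2 had 0. The letters AAGATGGC of the YY1 core and the E-box CACGTG, also searched on both strands, were in 0 of the 9 windows, against 1.56% and 6.02% of all windows. Smarca4 and Smarcc2, whose counts fell together in females, thus differed in this motif.

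The libraries held between 39923666 and 70575745 sense-strand counts. The share of uniquely mapped read pairs assigned to no gene was 31.0 to 34.8% in Con females and 36.3 to 43.9% in MSUS females, without overlap, and 34.7 to 40.6% in Con males and 32.2 to 44.7% in MSUS males. It counts pairs on no sense-strand exon, which takes in those inside introns or antisense to a gene as well as those between genes. The 8 striatal projection neuron markers, Drd1 and Drd2 among them, were present in every library and 0 of 8 passed in females. They summed to 1448 to 4119 CPM (counts scaled to equal library totals) in Con females (median 3530) and 2814 to 3951 in MSUS females (median 3698). In males they summed to 2374 to 4114 in Con and 1766 to 3896 in MSUS. The 6 general neuron markers summed to 3315 to 5124 CPM in Con females and 3080 to 3944 in MSUS females, with 6 of 6 log2 fold changes below 0, a median of −0.36 and 3 of 6 lower at an adjusted p under 0.10. In males these 6 summed to 3103 to 4444 in Con and 3145 to 5232 in MSUS. The summed level of 8 cortical excitatory neuron markers ran from 211 to 1492 CPM in Con females and from 78.2 to 666 in MSUS females, with 3 of 8 lower, a median log2 fold change of −1.82 and no marker at 0. In males it ran from 115 to 1059 CPM in Con and from 129 to 1511 in MSUS. Oligodendrocyte markers summed to 3992 to 5833 CPM in Con females and 3771 to 4657 in MSUS females, and 5 of 7 were lower, as were 2 of 6 astrocyte markers (5515 to 5835 and 5210 to 5803 CPM). The part of general neuron, oligodendrocyte and astrocyte RNA in the results was not tested.

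Per length, Smarcc2 and Smarcd1 were the most abundant of the 10 transcripts in the NAc. On the scale of CPM of sense counts per kb of exon, the level of Smarcc2 was 49.9 ± 3.13 and that of Smarcd1 45.8 ± 3.76 (SD, n = 24). The order of these 2 levels was the same in 18 of 24 libraries only, so they did not separate beyond their spread. Levels per kb then fell to 30.6 ± 1.12 for Smarca4, 26.2 ± 1.79 for Arid1a, 20.5 ± 1.26 for Smarca2, 17.5 ± 1.17 for Actl6b, 15.4 ± 0.547 for Smarcc1 and 15.1 ± 0.602 for Arid1b. The lowest levels per kb were those of Smarcb1, 7.53 ± 0.432, and Smarce1, 7.08 ± 0.381. Smarcc1 exceeded Arid1b in 16 of 24 libraries and Smarcb1 exceeded Smarce1 in 19 of 24, so neither pair separated, whereas all other neighbours in this order kept it in 23 or 24 libraries. The order also rests on the length used. The annotated exons of Smarca2 cover 14.3 kb, and its longest transcript 5.92 kb. Divided by the longest transcript its level was 49.3, above the 31.1 of Smarca4, so which ATPase transcript is the more abundant depends on the isoforms counted. On that length Arid1a, at 36.8, was also above Smarca4, and Smarce1, at 15.1, above Smarcb1, at 8.02.

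Of the neuronal forms of the exchangeable subunits, Actl6b and Ss18l1 were more abundant than their counterparts. Per kb, Dpf1 was close to Phf10 and above Dpf2, and Dpf3 was far below both counterparts. Actl6b, the neuronal actin-like subunit, was 5.48 ± 0.363 times the level per kb of its progenitor counterpart Actl6a (SD, n = 24), and Ss18l1, known as CREST, was 5.15 ± 0.438 times that of Ss18. Both held in 24 of 24 libraries, and divided by the longest transcripts the mean ratios were 3.90 and 2.27. Dpf1, a neuronal PHD finger subunit, was 1.05 ± 0.0998 times the level per kb of the progenitor subunit Phf10 and exceeded it in 17 of 24 libraries, while Dpf3 was 0.0792 ± 0.0104 times that of Phf10. Divided by the longest transcripts, the mean ratio of Dpf1 to Phf10 was 1.40. The level per kb of Dpf2 was 7.60 ± 0.332, against 13.1 ± 1.29 for Dpf1 and 0.991 ± 0.132 for Dpf3. Among the BAF60 genes, Smarcd1 was 2.64 ± 0.394 times the level per kb of Smarcd3 and 15.9 ± 1.74 times that of Smarcd2. Of the scaffold pair, Smarcc2 was 3.24 ± 0.231 times Smarcc1 per kb, and Arid1a was 1.73 ± 0.109 times Arid1b.

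MSUS females had lower counts of Smarca4, Smarcc2, Smarcd1 and Arid1b than Con females, by 6.85 to 12.4% in the fit. The comparison asks which transcripts early-life stress alters in females before any cocaine exposure. By edgeR's quasi-likelihood test 4 of 10 subunits passed an adjusted p under 0.10, all lower, where 25.1% of the 20571 genes tested passed in either direction and 11.9% passed as lower. Of the 8023 genes with a mean of at least 1000 counts, as all 10 subunits have, 29.3% passed and 21.7% passed as lower. The log2 fold changes (MSUS over Con) of 8 of 10 were below 0, with a median of −0.03, against −0.0027 over all genes and −0.04 over those of at least 1000 counts. Positions below are those of GRCm38, the assembly of mm10. The groups did not overlap for 2 of 10, Smarca4 and Smarcc2, and for 7.26% of all genes (3.38% with MSUS lower).

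**Figure D1:**
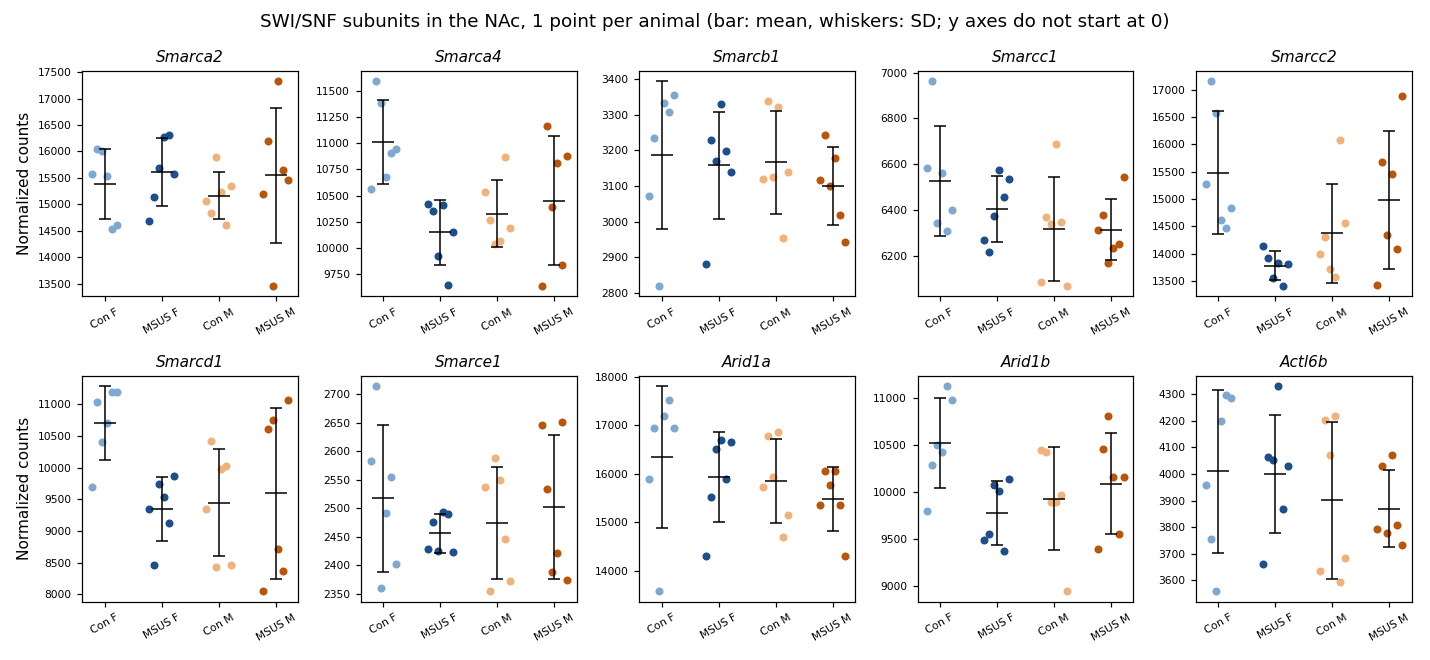
Normalized counts (counts divided by DESeq2 size factors) of the 10 subunits, 1 panel per gene, with the 4 groups on the x axis, 1 point per animal, the mean as a bar and the SD as whiskers. The MSUS female points of Smarca4 and Smarcc2 lie below all Con female points, while the male groups overlap for every gene.

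Of the ATPases, Smarca4 (ENSMUSG00000032187.16, chr9:21616169-21704230) ran from 10565 to 11596 normalized counts in the 6 Con females (median 10925) and from 9647 to 10419 in the 6 MSUS females (median 10250.0). All 6 MSUS females were below all 6 Con females. The log2 fold change was −0.11 (SE 0.035, adjusted p = 0.0414). The study itself named Smarca4 among estrogen receptor β network genes from these samples, so its direction here is not independent evidence. Its paralogue Smarca2 (ENSMUSG00000024921.17, chr19:26605050-26778322), which can take its place as the motor of the complex, ran from 14528 to 16054 in Con females (median 15558) and from 14685 to 16320.4 in MSUS females (median 15633), and 4 of 6 MSUS females were above the Con median. The fitted log2 difference was 0.02 (SE 0.041, adjusted p = 0.709).

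Of the core scaffolds, Smarcc2 (ENSMUSG00000025369.15, chr10:128459248-128490482) ran from 14471 to 17156 normalized counts in Con females (median 15048) and from 13410.1 to 14141 in MSUS females (median 13824). The groups did not overlap, and the SD was 1118 in Con and 261 in MSUS. The log2 fold change was −0.16 (SE 0.047, adjusted p = 0.0330). Smarcc1 (ENSMUSG00000032481.16, chr9:110117708-110240178), its partner in the scaffold dimer, ran from 6308 to 6964 (median 6481) in Con females and from 6215 to 6574 (median 6416) in MSUS females, and the fitted log2 difference was −0.02 (SE 0.033, adjusted p = 0.650).

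Smarcd1 (ENSMUSG00000023018.4, chr15:99702129-99713991), a BAF60 subunit through which transcription factors contact the complex, also fell. It ran from 9687 to 11186 normalized counts in Con females (median 10868) and from 8471 to 9869 in MSUS females (median 9438). All but 1 of the Con females were above every MSUS female, and Con female 1, at 9687, lay within the MSUS range. The log2 fold change was −0.19 (SE 0.046, adjusted p = 0.0172). Smarcb1 (ENSMUSG00000000902.13, chr10:75896769-75921617), a core subunit that binds the nucleosome, ran from 2819 to 3356 in Con females and from 2882 to 3329.7 in MSUS females. Smarce1 (ENSMUSG00000037935.16, chr11:99209047-99231017), an HMG-box subunit, ran from 2359 to 2714 and from 2423 to 2493. The MSUS range lay inside the Con range for Smarcb1 and for Smarce1, and their log2 differences were −0.01 (SE 0.047, adjusted p = 0.911) and −0.03 (SE 0.036, adjusted p = 0.567).

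Of the large DNA-binding subunits Arid1b passed, though not with any of 6 single animals left out (highest adjusted p = 0.148). Arid1b (ENSMUSG00000069729.13, chr17:4994332-5347656) ran from 9798 to 11129 normalized counts in Con females (median 10466) and from 9370.2 to 10139.9 in MSUS females (median 9786), with 5 of 6 Con females above every MSUS female. The log2 fold change was −0.10 (SE 0.037, adjusted p = 0.0742). Arid1a (ENSMUSG00000007880.16, chr4:133679008-133756769) ran from 13579.6 to 17522 in Con females (median 16941) and from 14312 to 16706 in MSUS females (median 16204). Con female 3 and MSUS female 1 were the lowest of their groups for Arid1a, Smarcb1 and Actl6b. The log2 difference of Arid1a was −0.03 (SE 0.061, adjusted p = 0.743). The neuron-specific Actl6b (ENSMUSG00000029712.14, chr5:137553517-137569582) ran from 3559 to 4298 in Con females and from 3662 to 4329 in MSUS females, a log2 difference of 0.00 (SE 0.052, adjusted p = 0.993).

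**Figure D2:**
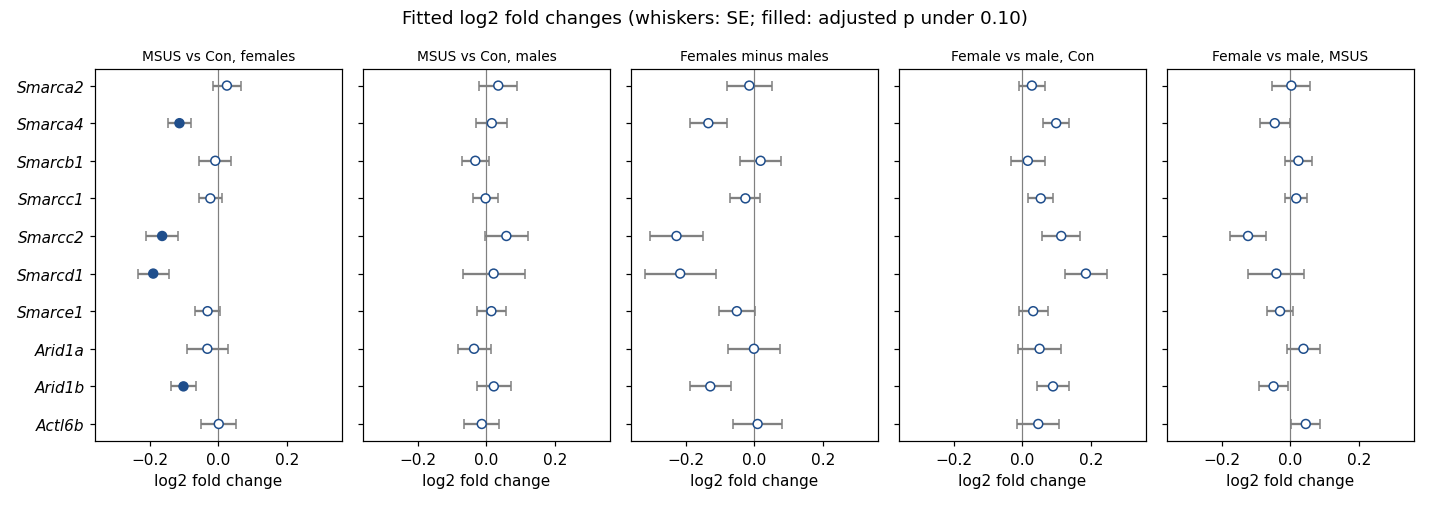
Fitted log2 fold changes of the 10 subunits (rows) in 5 comparisons (panels), with SE whiskers and filled points where the adjusted p was under 0.10. Only the panel of MSUS against Con females holds filled points, at −0.11 for Smarca4, −0.16 for Smarcc2, −0.19 for Smarcd1 and −0.10 for Arid1b.

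The calls depended on the model. With the share of pairs in no gene as a covariate, the log2 fold changes were −0.15 for Smarca4, −0.22 for Smarcc2, −0.22 for Smarcd1 and −0.13 for Arid1b, but the SE of Smarca4 rose to 0.073 and none of the 20571 genes passed (adjusted p = 0.760 for all 4). With offsets for GC content and transcript length, Smarca4 was at 0.01, Smarcc2 at −0.04, Smarcd1 at −0.04 and Arid1b at −0.02, none of them passing, while Smarca2 passed as higher (0.12, adjusted p = 0.0818) and Smarce1 as lower (−0.23, adjusted p = 0.0371). The same offsets changed the split over all genes from 2698 higher and 2458 lower to 2544 higher and 1058 lower. The longest transcripts of Smarcd1, Smarca4, Smarcc2 and Arid1b are 57.2, 55.9, 54.3 and 52.9% GC. Of the subunits that did not pass without the offsets, Arid1a is at 56.7%, Actl6b at 51.6%, Smarca2 at 51.1%, Smarcb1 at 49.3%, Smarcc1 at 48.4% and Smarce1 at 39.1%. With the cortical marker score as a covariate only Smarcd1 passed (−0.22, adjusted p = 0.0534), and Smarca4 and Smarcc2 moved to −0.06 and −0.08. Leaving out the library of the highest cortical score in each group, Con female 3 and MSUS female 1, kept Smarca4, Smarcc2 and Smarcd1 (−0.11, −0.15 and −0.20). The remaining scores ran from 3.04 to 5.51 in Con females and from 0.64 to 3.60 in MSUS females. That fit thus did not remove the difference in score between the groups. Within library numbers 1 to 12 and 13 to 24 of the labels (3 animals per group in each set) the differences of mean log2 CPM were −0.13 and −0.10 for Smarca4, −0.17 and −0.16 for Smarcc2, −0.14 and −0.24 for Smarcd1 and −0.12 and −0.09 for Arid1b.

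**Figure D3:**
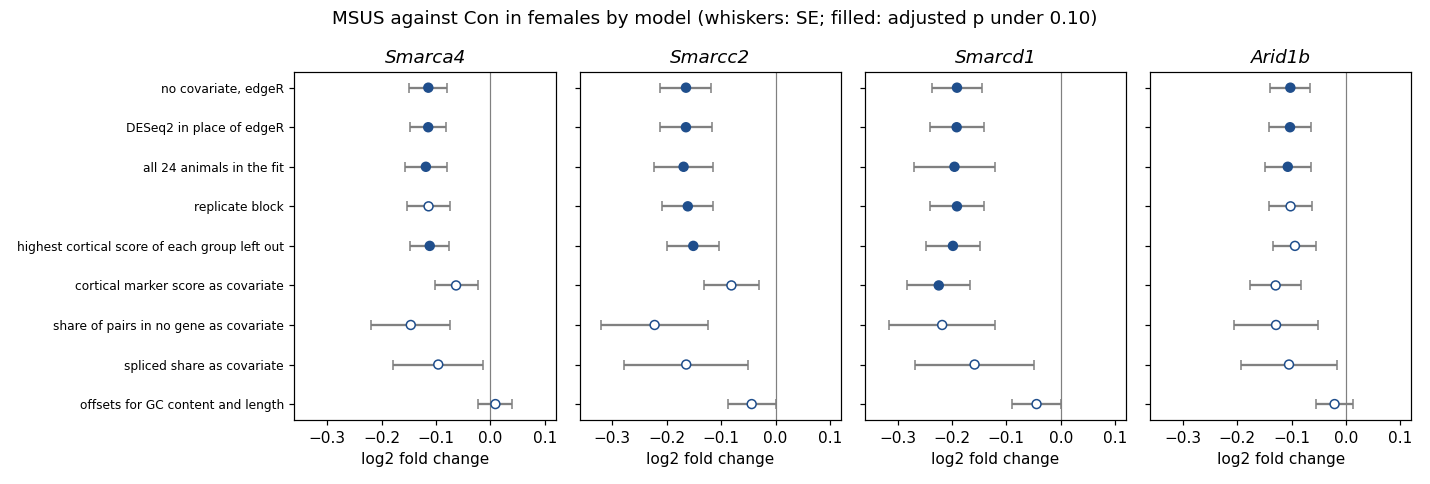
Log2 fold change (x axis) of the 4 subunits that passed in females under 9 models (rows), with SE whiskers and filled points where the adjusted p was under 0.10. The points stay left of 0 in every model shown except that of Smarca4 with offsets for GC content and length, and no point is filled with the share of pairs in no gene, the spliced share or those offsets in the model.

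Of the 21 other SWI/SNF subunits listed, 3 passed in females, all lower, where 11.9% of all genes passed as lower, and the median log2 fold change was −0.03. With offsets for GC content and length these 3 did not pass, and 4 others passed as higher: Smarcd2 (0.18), Dpf1 (0.22), Bicral (0.10) and Brd7 (0.08), named after their values were seen. Actb, the actin that is shared with the cytoskeleton and is part of the ATPase module, ran from 85875 to 91179 normalized counts in Con females and from 76358 to 83754 in MSUS females, without overlap (log2 fold change −0.13, SE 0.037, adjusted p = 0.0314). Bcl7a, an accessory subunit of the ATPase module, ran from 4413 to 5012 and from 4086 to 4460.2 (−0.15, SE 0.041, adjusted p = 0.0262). Bicra, which marks the GLTSCR1 form of the complex, ran from 2286 to 2681 and from 2120 to 2339.5 (−0.11, SE 0.042, adjusted p = 0.0940). The exchangeable partners did not pass without these offsets: the log2 differences were 0.04 for Actl6a, 0.08 for Dpf1, −0.06 for Dpf3, 0.05 for Phf10, −0.06 for Ss18 and −0.01 for Ss18l1, with adjusted p from 0.350 to 0.866.

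Other ATP-dependent remodellers held genes past the threshold in both directions. In females 1 of 11 ISWI genes passed, as lower, of the CHD and NuRD genes 1 of 20 was higher and 3 lower, and of the INO80 and SRCAP genes 4 of 18 were higher and 5 lower, against the 25.1% of all genes that passed in either direction and 11.9% as lower. Their median log2 fold changes were 0.05, −0.03 and −0.03. Among the catalytic subunits, Ino80 rose by 0.14 on the log2 scale (SE 0.042, adjusted p = 0.0456), while Smarca5, the ISWI motor, was at 0.05 (adjusted p = 0.237) and Chd4, the NuRD motor, at −0.07 (adjusted p = 0.379).

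In males none of the 10 subunits passed between MSUS and Con, where 0% of the 20691 genes tested passed by edgeR (191 at an unadjusted p under 0.05) and none by DESeq2 (148 unadjusted). Smarca4 ran from 10041 to 10867 normalized counts in Con males (median 10229.6) and from 9634 to 11168 in MSUS males (median 10599). Smarcc2 ran from 13581 to 16072 (median 14148) and from 13429.6 to 16889 (median 14900.5). Smarcd1 ran from 8432 to 10421 (median 9657) and from 8048 to 11065 (median 9660.2), and its SD in MSUS males, 1354, was larger than the 507 of MSUS females. Arid1b ran from 8942 to 10451 in Con males and from 9394 to 10810.4 in MSUS males. The groups of males overlapped for all 10, where 0.0338% of all genes did not overlap, and the fitted log2 differences lay between −0.04 and 0.06, with 4 of 10 below 0.

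The difference between the sexes in the response to MSUS was tested as a group-by-sex interaction in all 24 animals. It was −0.23 for Smarcc2 (SE 0.077, unadjusted p = 0.0068, adjusted p = 0.20), −0.22 for Smarcd1 (SE 0.10, adjusted p = 0.265), −0.13 for Smarca4 (SE 0.054, adjusted p = 0.221) and −0.13 for Arid1b (SE 0.059, adjusted p = 0.251) by edgeR's quasi-likelihood test. None of the 10 passed, and 0% of 21500 genes did (4031 at an unadjusted p under 0.05, 467 adjusted by DESeq2, with 0 of the 10 among them). The call rests on 1 library. Without MSUS male 1, which has the highest share of pairs in no gene (44.7%), 3031 genes passed and Smarcc2 (−0.25, adjusted p = 0.0528) and Smarca4 (−0.15, adjusted p = 0.0766) were among them.

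Between the sexes in Con animals, all 10 fitted log2 differences (female over male) were above 0, with a median of 0.05, against 0.01 over all genes and 0.05 over genes of at least 1000 counts. None passed by edgeR, where 2.64% of 20641 genes did. The differences nearest to passing were Smarcd1, 0.19 (SE 0.062, adjusted p = 0.147), and Smarca4, 0.10 (SE 0.037, adjusted p = 0.193). Both passed by DESeq2 (adjusted p = 0.0925 and 0.0960), as did 1511 of the 20641 genes, against 544 by edgeR. The study reported Smarca4 as higher in Con females than in Con males from these samples, so that call is not independent evidence. The share of pairs in no gene was 31.0 to 34.8% in Con females and 34.7 to 40.6% in Con males. With it as a covariate 11 genes passed by edgeR, against 544 without it, and 0 of the 10 subunits. The part of that share in the differences of Smarcd1 and Smarca4 was not tested. In MSUS animals none passed, where 0.135% of 20714 genes did, and 5 of 10 differences were below 0, from −0.12 for Smarcc2 (SE 0.052, adjusted p = 0.667) to 0.04 for Actl6b. The comparisons with Con females share those 6 libraries, as those with MSUS females share theirs.

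Because 2 genes of 1 library share its depth, the log2 ratio of raw counts was also taken for 3 pairs of paralogues. In each pair the first gene had passed as lower in females and the second had not. The tests in females reuse those counts and add no independent evidence. A ratio also does not remove the share of pairs in no gene. Over the 12 males its Pearson r was −0.94 with Smarcc2 and −0.18 with Smarcc1, and −0.85 with Smarca4 and −0.17 with Smarca2. The part of that share in the ratios was not tested. In females the ratio of Smarca4 to Smarca2 was −0.48 ± 0.0611 in Con and −0.62 ± 0.0917 in MSUS (SD, n = 6), and all 6 MSUS females were below the Con median. The difference was −0.14 by an exact two-sided permutation test over animals (p = 0.0130, adjusted p = 0.0606 over 12 tests). The ratio of Smarcc2 to Smarcc1 was 1.24 ± 0.0840 in Con and 1.11 ± 0.0505 in MSUS females, again a difference of −0.14 with all 6 below the Con median (exact permutation p = 0.00649, adjusted p = 0.0606). The ratio of Arid1b to Arid1a was −0.63 ± 0.133 and −0.70 ± 0.0585, which did not differ beyond the spread (exact permutation p = 0.268, adjusted p = 0.471). In males the 3 differences were −0.02, 0.06 and 0.06, with exact permutation p from 0.275 to 0.753. The comparison of the sexes after MSUS reuses the MSUS female libraries, so it is not independent of the tests in females. There the ratio of Smarcc2 to Smarcc1 was lower in females, the males having a mean of 1.24 ± 0.102 (difference −0.14, exact permutation p = 0.0152, adjusted p = 0.0606). These adjusted p-values rose above 0.10 when single animals were left out, up to 0.121.

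**Figure D4:**
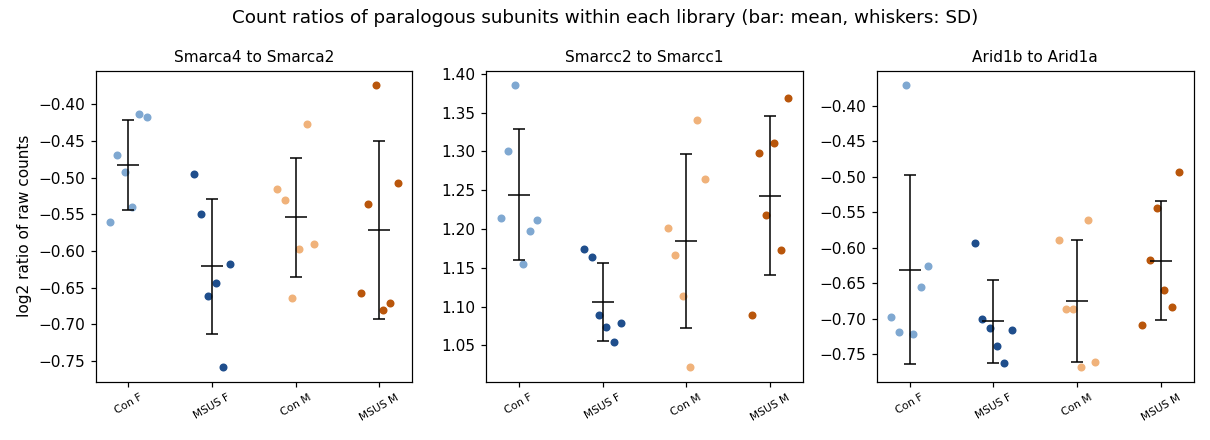
Log2 ratio of raw counts within each library (y axis) for Smarca4 to Smarca2, Smarcc2 to Smarcc1 and Arid1b to Arid1a, by group, with 1 point per animal, the mean as a bar and the SD as whiskers. In the first 2 panels the MSUS female mean lies 0.14 below that of Con females, with overlapping points, and the Con female point at −0.37 stands above the others in the third panel.

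In males, in which no subunit passed between the groups, Smarcc2 and Smarca4 of the 10 fell as the share of pairs in no gene rose. The relation was taken for the 10 subunits only, so whether it is particular to them among all genes was not tested. With this share as a covariate, 0 of 20571 genes passed in females, against 5156 without it. Over the 12 males, the log2 CPM of Smarcc2 had a Pearson r of −0.94 with that share (Spearman rho −0.94). Both were past the permutation test with 100000 resamples (p = 1e-05 for r, the smallest it can give, and 3e-05 for rho, adjusted 0.0002 and 0.0006 over 20 relations). The r was −0.91 in Con males, −0.97 in MSUS males, −0.91 and −0.98 in the library sets, and −0.94 without MSUS males 1 and 6, which lie farthest from the median. Smarca4 had an r of −0.85 and a rho of −0.78 (permutation p = 0.00062 and 0.00436, adjusted 0.0062 and 0.0436), an r of −0.60 in Con males, −0.90 in MSUS males, −0.82 and −0.81 in the library sets, and −0.82 without the 2. Smarcd1 had an r of −0.65 (adjusted permutation p = 0.0854) and a rho of −0.69 (adjusted 0.112). Its r dropped to −0.39 without the 2, so that this relation rests largely on those 2 libraries, and was −0.40 in Con males and −0.74 in MSUS males. Smarce1 had an r of 0.69 (adjusted permutation p = 0.0841) and a rho of 0.64 (adjusted 0.138). Its r dropped to 0.48 without the 2, but was 0.76 in Con males, which hold neither, and 0.70 in MSUS males. In the library sets r was −0.72 and −0.39 for Smarcd1 and 0.70 and 0.40 for Smarce1. The other 6 subunits had r between −0.33 and 0.24. With the cortical marker score none of the 10 had an adjusted permutation p under 0.05, and only the r of Smarcd1 had one under 0.10. This r was the largest, 0.67 (rho 0.60, adjusted permutation p = 0.0854 and 0.170). It was 0.62 in Con males, 0.72 in MSUS males, 0.66 and 0.88 in the library sets, and 0.61 without Con male 5 and MSUS male 6. In females the share differs between the groups without overlap, so its part in the falls of Smarca4 and Smarcc2 and that of MSUS cannot be told apart.

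**Figure D5:**
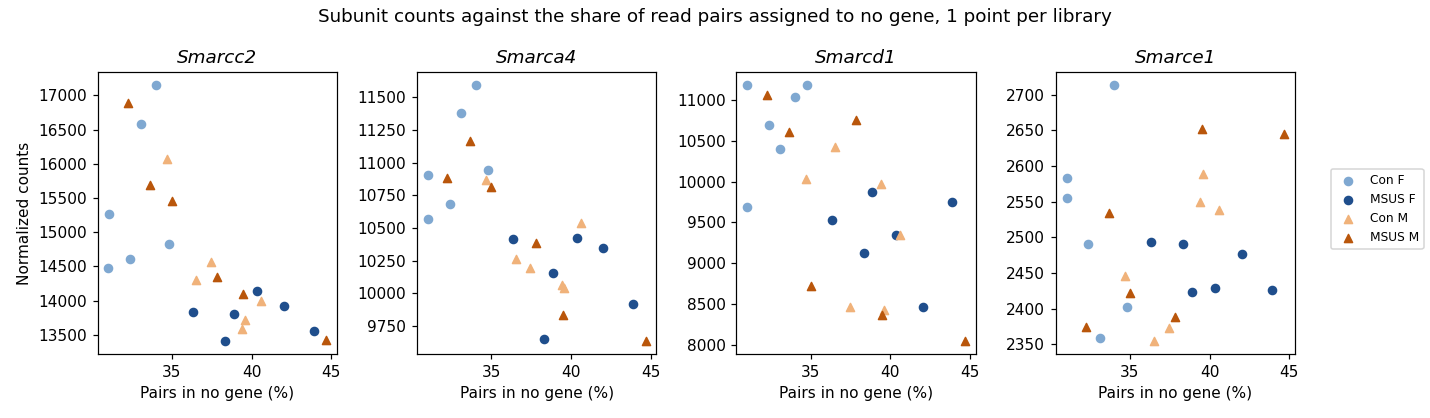
Normalized counts (y axis) against the percentage of read pairs assigned to no gene (x axis) for Smarcc2, Smarca4, Smarcd1 and Smarce1, with 1 point per library, circles for females and triangles for males. For Smarcc2 the male points fall from 16889 at 32.2% to 13429.6 at 44.7%, and the MSUS female points lie to the right of the Con female points.

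Across all 24 libraries the subunits did not vary as 1 block. By Pearson r of log2 CPM, a description over libraries that share depth, sex and treatment, Smarca4 was closest among the members to Smarcc2 (0.85), Smarcd1 to Arid1b (0.78), and Smarcb1 to Arid1a (0.92), with Actl6b next to Smarcb1 (0.85). Smarca2 and Smarce1 had no member above 0.30 and 0.38, and Smarcc2 and Actl6b ran against each other (−0.35). Of 14186 genes outside the gene lists with a mean of at least 100 counts, the most similar were Lrp3 for Smarca4 (0.93), Tom1l2 for Smarcc2 (0.97), Cyp46a1 for Smarcd1 (0.97), Cry2 for Arid1b (0.85), Shank3 for Arid1a (0.96), Zfp3 for Smarcb1 (0.92), Pdzd4 for Actl6b (0.94), Crip2 for Smarcc1 (0.90), Tub for Smarca2 (0.83) and Thrb for Smarce1 (0.80).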

How the data were processed

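NAc RNA was rRNA-depleted without poly(A) selection, which keeps unspliced RNA, and sequenced as read pairs. The authors aligned the pairs to mm10 with STAR 2.6.1b and GENCODE M15 and deposited for each gene the raw counts of its uniquely mapped pairs, not normalized, in 3 strand columns, of which the sense column was used here. Pairs that overlap exons of several genes are left out of these counts. Rows naming no gene were kept out of library sizes, and their share is given with the libraries. Genes were named from GENCODE M21 on GRCm38, which holds 52489 of 52636 identifiers.

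Genes were filtered by filterByExpr (minimum count 10), normalized by TMM and tested with the robust quasi-likelihood F test of edgeR 4.0.16 in R 4.3.3. P-values were adjusted by Benjamini-Hochberg over all genes, with a threshold of 0.10. Log2 fold changes are MSUS over Con or female over male, and the SE was taken as their size divided by the root of F. Normalized counts were divided by size factors of DESeq2 1.42.0. Single values were compared with exact permutation tests (scipy 1.17.1, Python 3.11.15). The procedure was tested on simulated counts. Within groups, no 2 libraries were copies (lowest chi-square per gene 6.34 over 60 pairs). The study's term for estrous stage was left out, since the labels give no stage to 6 of the 12 females and give one to 6 males.

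The 10 members, the other gene lists and the tests were chosen with earlier results of these data known. Named outside the members are the other SWI/SNF subunits past the threshold in females, 6 exchangeable partners, 3 catalytic subunits of other remodellers and the most similar gene of each member. Smarcd2 and Smarcd3 were added as paralogues of Smarcd1, and Dpf2 as a counterpart of Dpf1 and Dpf3, for their levels. The cortical score is the mean log2 CPM of the 8 cortical markers. The alternatives were DESeq2, its size factors, other filters, unstranded counts, replicate block, library set, share of pairs in no gene, spliced share (splice events per mapped pair, from the study's sequencing statistics) and cortical score as covariates, offsets for GC content and length, an adjusted p under 0.05, a joint fit of the 24 animals and each animal left out.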

Additional observations from a re-analysis of the deposited data

Results flagged for a closer look

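Over 52 sets of 6 libraries (10 subunits and 3 ratios in 4 groups), 3 held a library far from the others by Dixon's test, whose 95% critical value for 6 samples is 0.625. Chance flags about 1 in 20 such sets. Arid1b was at 8942.3 normalized counts in Con male 6, the lowest of its group, with a gap of 0.633 of the group's range. The log2 ratio of Arid1b to Arid1a was −0.37 in Con female 3 (gap 0.728) and −0.59 in MSUS female 1 (gap 0.636), the highest of each female group. These 2 libraries have the lowest Arid1a counts and the highest cortical marker score of their groups. The part of cortical tissue in these ratios was not tested.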

How the results depend on the processing

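Of the 10 subunits, 4 passed in females, and 3 or 4 passed with each animal left out, with an adjusted p under 0.05, no filter, a filter of 10 counts in every animal, unstranded counts, DESeq2, its size factors, the library set, all 24 animals, or the highest cortical score of each group left out (chosen after seeing the data). Under these settings 10.1% (no filter) to 29.0% (unstranded counts) of all genes passed, and 25.1% in the main fit. The number of subunits was 0 with the share of pairs in no gene, 0 with the spliced share, 1 with the cortical score, and 2 (1 higher, 1 lower) with offsets for GC content and length. Of all genes 0%, 0%, 7.15% and 17.5% passed in these 4 fits. Of the other subunits 3 passed, all lower, and 0, 0 and 1 did with these covariates and 4, all higher, with the offsets. Smarca4 reversed to 0.0091 with the GC and length offsets and to 0.0093 with these and a replicate block. Over all genes, 5156 passed in females, 0 with either share, 1470 with the cortical score, 3126 at 0.05, and 2022 with block and offsets, and 3358 and 3102 without MSUS females 2 and 3. Arid1b lost its call without any of 6 animals (Con females 5 and 6, MSUS females 1, 2, 4 and 5; highest adjusted p = 0.148, edgeR).

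Replicate numbers did not pair the animals (correlations of same-numbered females from −0.24 to 0.25). With a replicate block 2 subunits passed in females (Smarcc2 and Smarcd1), Smarca4 staying at −0.11 (adjusted p = 0.102), and with block and offsets 1 subunit (Smarce1, lower) and 1 of the other subunits (Smarcd2, higher). Of all genes 18.5% passed with the block and 9.83% with block and offsets. By sign flips of same-numbered differences, the block left the ratio differences at −0.139 for Smarca4 to Smarca2 and −0.138 for Smarcc2 to Smarcc1 in females and −0.137 for the latter between MSUS sexes, each with an adjusted exact permutation p of 0.25. With 6 pairs, the smallest p of sign flips is too large for 1 ratio alone to pass after adjustment over the ratio tests. These p-values therefore cannot decide whether the differences hold under the block.

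Leaving out 1 animal gave 0 to 2 subunits and 0 to 3031 of all genes in the interaction. It gave ratio differences of −0.164 to −0.111 (Smarca4 to Smarca2) and −0.156 to −0.110 (Smarcc2 to Smarcc1) in females, −0.168 to −0.112 (Smarcc2 to Smarcc1) and −0.108 to −0.0606 (Arid1b to Arid1a) between MSUS sexes, and 0.0499 to 0.0972 (Smarca4 to Smarca2) between Con sexes. The last of these passed without Con male 5, and that of Arid1b to Arid1a passed without MSUS female 1. Between Con sexes 2 subunits passed with DESeq2, as did 1511 of 20641 genes. None passed in males or between MSUS sexes under any alternative. Where no value is named, the cause was not tested. Counting error was at most 2.22% of a count (Smarce1 in its lowest library).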
